A study of Homo sapiens with 2 samples.

Results

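The BCL2 family decides whether a cell's mitochondria stay intact, and 10 of its genes were compared between 2 lymphoma cell lines. They were chosen by name: the guardians BCL2, BCL2L1, BCL2L2 and MCL1, which keep a cell alive, and the killers BAX, BAK1, BCL2L11, BMF, PMAIP1 and BBC3. Of the 10, 9 had a probe set (the group of array probes summarised into 1 value) that the platform annotation assigned to that gene alone, among 14232 genes with such a value in all. MCL1 was covered only by a probe set that names 3 genes, so its values are given apart and enter no count or median of the 9.

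The samples were SUDHL6 and HT, both established human lines of diffuse large B cell lymphoma, with 1 exon array for each line. Both were cultured in the same serum-containing medium and left untreated, so each value is a baseline RNA level. No genotype, passage or replicate culture is given in the labels. The series belongs to work on killing lymphoma cells with an inhibitor of Polycomb repressive complex 2, and the question addressed here is how the genes that govern cell death stood in the lines before any compound was added. With 1 array per line there is no spread between cultures, no test and no p-value, and the number of arrays limits the precision of every value.

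Guardian proteins hold the killers in check by binding them through a groove that receives a short helix called the BH3 domain. The effectors BAX and BAK1, when freed or activated, assemble into pores in the outer mitochondrial membrane, and the cytochrome c that escapes starts the caspase cascade. BH3-only proteins are the sensors of the family: they are induced or released by stress, growth factor loss or DNA damage, occupy the guardians, and some of them activate the effectors directly. In germinal centre B cells BCL2 is normally kept low, and in many lymphomas a chromosome translocation places it under immunoglobulin control.

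Values are log2 expression values after RMA, so a difference of 1 is a change of 2-fold, and all differences below are SUDHL6 minus HT. The level that unused genes reach was set at the 95th percentile of 225 olfactory receptor genes, 3.81 in SUDHL6 and 4.11 in HT, and is called the dim level. The differences of these 225 genes had a central 95% range of -1.03 to 1.26, so differences of 1 also occurred among genes presumed unused. Genes with a difference of 1 or more in either direction were counted as different, provided the line with the higher value was at or above its own dim level. Where the lower value lay under that level, the fold is computed against the level and written as "at least". By this rule 1155 of 14232 genes (8.12%) were counted, 498 higher in SUDHL6 (3.50%) and 657 higher in HT (4.62%). The excess toward HT depended on scaling: quantile normalization gave 576 and 568, and loess gave 584 and 562. Of the 9405 genes that reached the dim level, 12.3% were counted, 5.30% as higher in SUDHL6 and 6.99% as higher in HT. The B cell identity of both lines was visible in CD79A, CD79B, PAX5, CD22 and MS4A1, all above the dim level, with MS4A1 (CD20) at 11.33 in SUDHL6 and 8.75 in HT. All 4 T cell markers, all 4 myeloid markers and the erythroid marker with a value were under the dim level of each line, as was EPCAM, whereas the stromal collagen gene COL1A1 lay just above it, at 4.47 and 4.44.

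All 9 members reached the dim level, and 4 of them were counted as different. BCL2, BMF and PMAIP1 were higher in SUDHL6, and BCL2L2 was higher in HT. These 4 of 9 (44.4%) stand beside the 12.3% among all genes that reached the dim level. The median difference of the 9 members was 0.27, against -0.04 over all 14232 genes and -0.05 over the 9405. The median size of the difference, either way, was 0.82 for the members and 0.30 for the 9405 genes. In direction, 6 members had the higher value in SUDHL6 and 3 in HT, beside 4188 and 5029 of the 9405 genes.

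**Figure D1:**
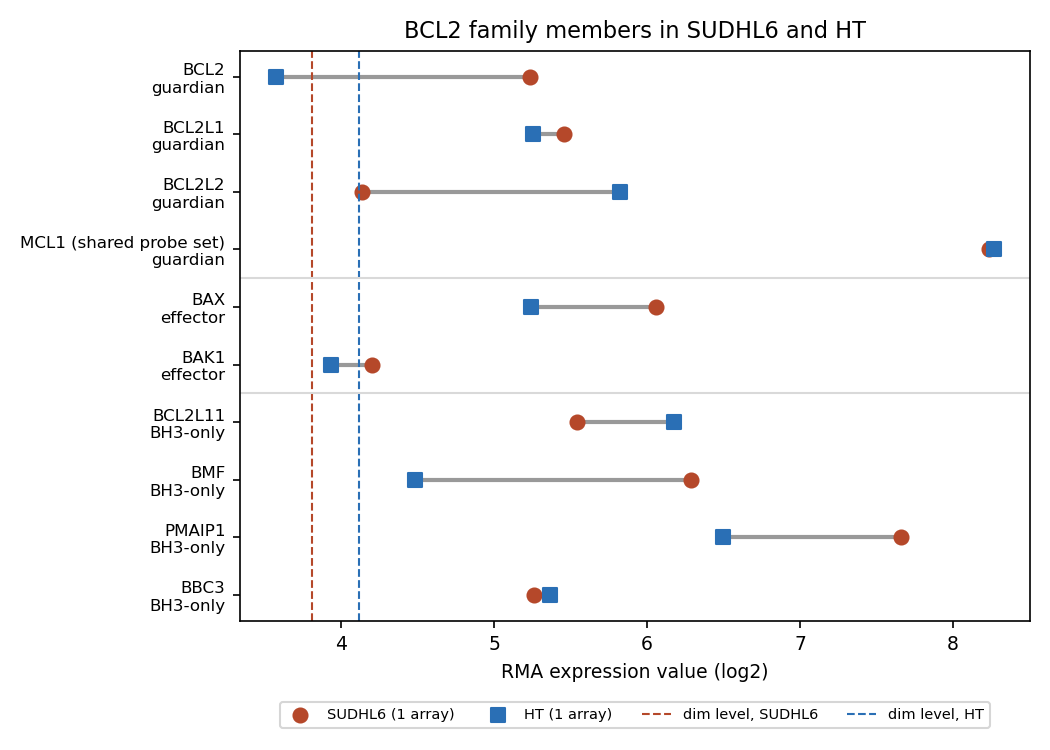
RMA expression value (log2, horizontal axis) of the 10 genes in SUDHL6 (circles) and HT (squares), 1 array each, with grey bars joining the lines and dashed lines at the dim level of each line. BCL2, BMF and PMAIP1 extend to the right in SUDHL6, BCL2L2 extends to the right in HT, and MCL1, measured by a shared probe set, has nearly the same value in both.

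Among the guardians, BCL2 and BCL2L2 differed in opposite directions. BCL2, the founding survival protein of the family, had a value of 5.23 in SUDHL6 and 3.57 in HT. The HT value lay below the dim level of 4.11, so BCL2 was at least 2.17-fold higher in SUDHL6. The measured difference of 1.66 includes that dim value, and with it raised to the dim level the difference was 1.12. BCL2L2, which encodes BCL-W, had a value of 4.14 in SUDHL6 and 5.82 in HT. It was 3.22-fold higher in HT, a difference of -1.69 that 2.33% of the 9405 genes reached or passed in that direction. The SUDHL6 value of BCL2L2 was close above the dim level of 3.81. RefSeq also lists the readthrough gene BCL2L2-PABPN1, whose transcripts contain BCL2L2 sequence. The signal of the BCL2L2 probe set cannot be divided between them, and PABPN1 itself stood at 7.03 and 7.46.

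The other guardians differed little. BCL2L1, which encodes BCL-XL, stood at 5.46 in SUDHL6 and 5.26 in HT, 1.15-fold higher in SUDHL6. A difference of this size, either way, occurred in 64.1% of the 9405 genes. MCL1, a short-lived guardian that germinal centre B cells need, was read by the probe set it shares with ADAMTSL4 and the antisense gene ADAMTSL4-AS1, at 8.23 and 8.27, a difference of -0.03. A probe set of ADAMTSL4 alone stood at 4.99 and 4.59. How much of the shared signal belongs to MCL1 was not tested.

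Both effector genes had the higher value in SUDHL6, and neither was counted as different. BAX, which moves from the cytosol to mitochondria on activation, stood at 6.06 in SUDHL6 and 5.24 in HT, 1.77-fold higher. This difference of 0.82 was the largest among the members that stayed under 1, and 7.23% of the 9405 genes lay as far or farther in that direction. BAK1, which resides in the outer mitochondrial membrane, stood at 4.20 in SUDHL6 and 3.93 in HT. The HT value was below the dim level, so the fold was at least 1.06, and the measured difference was 0.27. RefSeq lists 2 pseudogenes of BAK1, and the BAK1 values are uncertain for that reason as well.

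Among the BH3-only genes, BMF and PMAIP1 were counted as higher in SUDHL6, and BCL2L11 and BBC3 were not counted. BMF, whose product is held at the cytoskeleton until stress releases it, stood at 6.29 in SUDHL6 and 4.48 in HT. Both values were above the dim level, and BMF was 3.49-fold higher in SUDHL6. This difference of 1.80 was the largest of the 9 members, and 2.19% of the 9405 genes lay as far or farther in that direction. PMAIP1, which encodes NOXA, the sensor that binds chiefly MCL1, stood at 7.66 in SUDHL6 and 6.50 in HT. It was 2.24-fold higher in SUDHL6, a difference of 1.16 that 4.41% of the 9405 genes matched or passed in that direction.

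BCL2L11 and BBC3, the genes of the potent activators BIM and PUMA, were not higher in SUDHL6. BCL2L11 stood at 5.54 in SUDHL6 and 6.18 in HT, 1.55-fold higher in HT and under the threshold, with 14.5% of the 9405 genes as far or farther that way. BBC3, a target gene of p53, stood at 5.26 and 5.37, and 79.8% of the 9405 genes differed by as much or more, either way. Of the 4 BH3-only genes, 2 were thus counted as higher in SUDHL6 and 0 as higher in HT, beside 5.30% and 6.99% of all genes that reached the dim level. The median difference was 0.53 for the BH3-only genes, 0.55 for the 6 killers together and 0.20 for the 3 guardians with a value of their own.

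**Figure D2:**
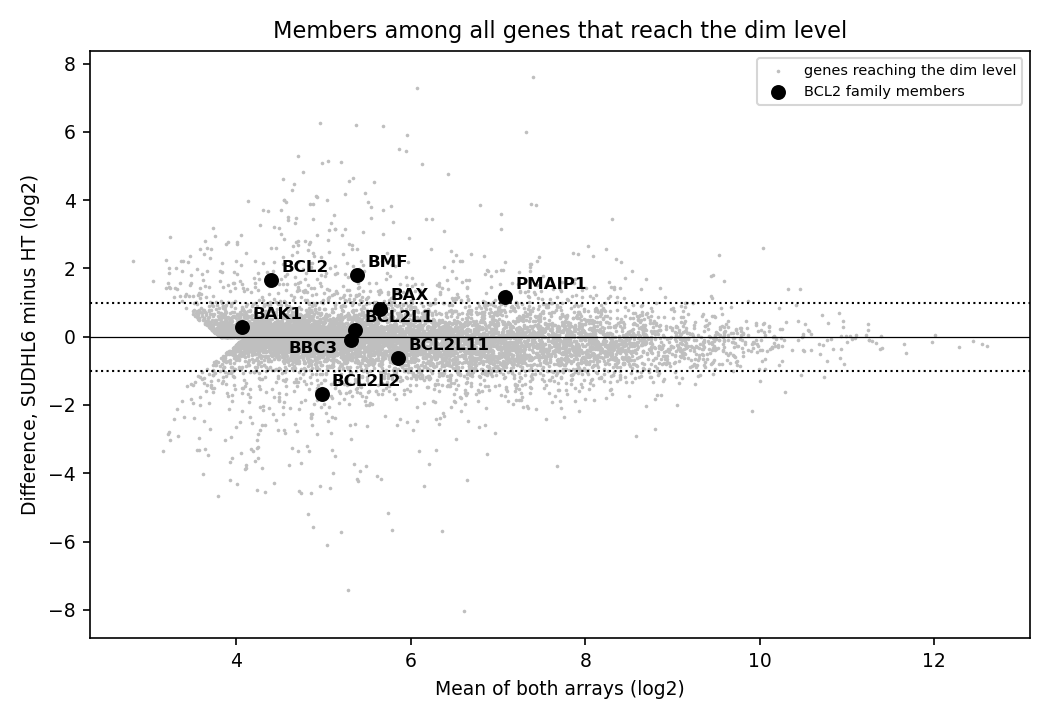
Difference, SUDHL6 minus HT (log2, vertical axis), against the mean of both arrays (log2, horizontal axis) for the 9405 genes that reached the dim level (grey) and the 9 members with a probe set of their own (black, named). Dotted lines mark differences of 1 and -1. BCL2, BMF and PMAIP1 lie above the upper line, BCL2L2 lies below the lower line, and the other 5 members lie between them, with BAX at 0.82 nearest to a line.

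To see whether the members differed together with the genes around them, each was set against its 10 nearest measured neighbours, 5 on each side. Of the 9 members, 4 lay above all of their neighbours, 2 lay below all of them and 3 lay within their range. Among the genes that reached the dim level and had 10 such neighbours, 21.7% lay outside the range of theirs. Many neighbours were dim: 5 of the 10 around BCL2 and around PMAIP1, 3 around BMF and 4 around BCL2L1 reached the dim level. Over the neighbours that reached it, a restriction added after the data were seen, the same members lay above (4), below (2) and within (3) the range. No share over all genes was computed for this restriction. The 21.7% does not apply to it, because a range over fewer neighbours is as wide or narrower.

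BCL2 and PMAIP1 lie on the same arm of chromosome 18, close enough to share the neighbours RNF152, PIGN and RELCH, and the genes around them lay in both directions. The 10 neighbours of BCL2 ranged from -0.96 to 0.65 with a median of -0.04, and 0 of them were counted as different. The genes that flank BCL2 directly, PHLPP1 (-0.92) and KDSR (-0.96), had lower values in SUDHL6. The neighbours of PMAIP1 had a median of -0.36, and the 5 that reached the dim level ranged from -1.63 to 0.65. Among these, SEC11C, a signal peptidase subunit gene, was 3.10-fold higher in HT. The 116 genes of chromosome 18 that reached the dim level had a median of -0.10.

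BMF on chromosome 15 lay above all 10 neighbours, of which the 3 that reached the dim level ranged from -1.03 to 0.00. EIF2AK4, the gene of the amino acid sensor kinase GCN2, was the counted neighbour there, 2.05-fold higher in HT. BCL2L2 on chromosome 14 lay below all 10 neighbours, which ranged from -0.43 to 0.42. On chromosome 19, BAX lay above its neighbours, whose range was -0.80 to 0.37, while BBC3 lay within its own. BCL2L11 on chromosome 2 lay below its neighbours, of which the 6 that reached the dim level ranged from -0.09 to 0.98. BCL2L1 lay within the range of its neighbours, among which PDRG1 was 2.90-fold higher in HT. BAK1, at 0.27, lay beside a neighbour median of 0.43. There 8 of 10 neighbours had the higher value in SUDHL6, and the respiratory assembly factor gene UQCC2 was 2.94-fold higher. This direction was not particular to the region: the 488 genes of chromosome 6 that reached the dim level had a median of 0.26, beside -0.05 over all 9405.

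**Figure D3:**
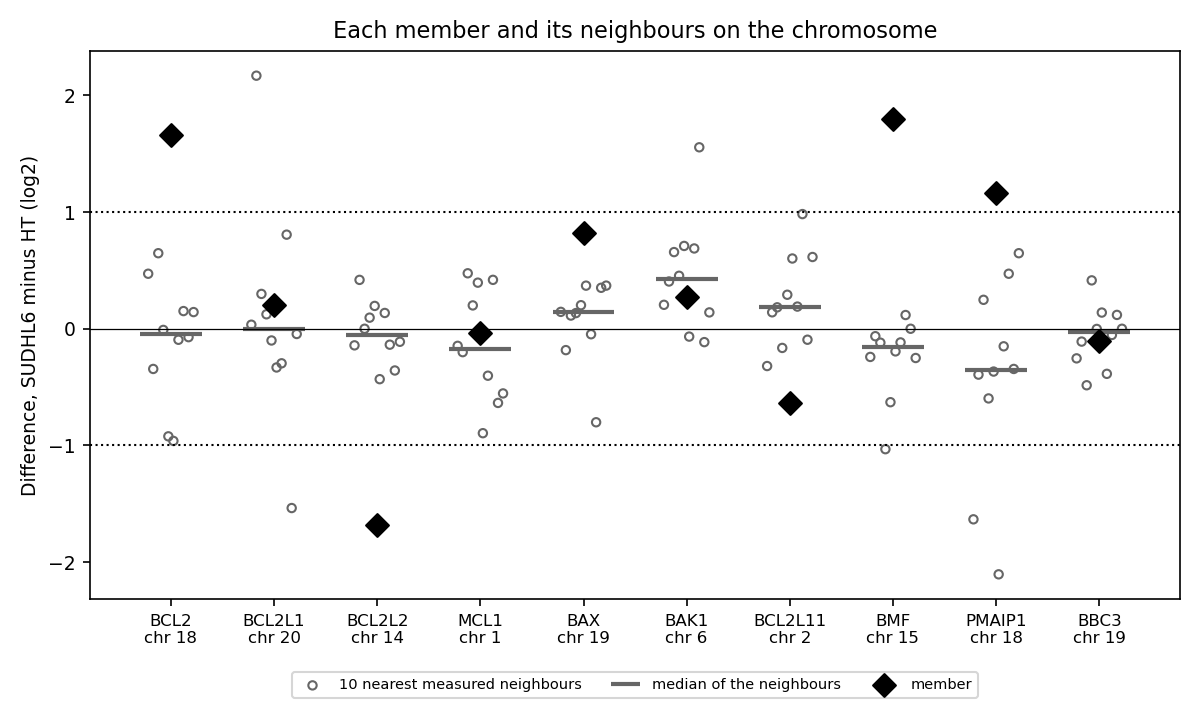
Difference, SUDHL6 minus HT (log2, vertical axis), of each member (diamonds) and of its 10 nearest measured neighbours (open circles), with grey bars at the median of the neighbours and the chromosome under each name. BCL2, BMF, PMAIP1 and BAX stand above all of their neighbours, BCL2L2 and BCL2L11 stand below all of theirs, and MCL1 is plotted from its shared probe set.

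The rest of the cell death pathway was described by lists. In 8 lists around the BCL2 family, 60 of 78 genes had a value, 52 reached the dim level and 2 were counted as different, which is 3.85% of the 52, beside 12.3% of all genes that reached the dim level. Probe sets that name several genes are outside this count. Some of them, such as those of STAT5A with STAT5B and of FAS with STAMBPL1, differed by more than 1 and are given below. The median of the 60 was -0.09, with 21 genes higher in SUDHL6 and 37 in HT. Over all 14232 genes the median was -0.04, with 6157 higher in SUDHL6 and 7534 in HT.

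No other gene of the family itself was counted as different. BCL2L10, a further guardian, lay far below the dim level in both lines, at 1.98 and 2.52. BCL2A1, a guardian induced by NF-kB, was read by a probe set shared with ST20 that also lay below it, at 3.36 and 3.47. Of the list with BOK, BID, BAD, BIK and HRK, 4 had a value, 3 reached the dim level, and the median was -0.01. HRK, a BH3-only gene best known from neurons, stood at 6.67 in SUDHL6 and 6.68 in HT. BID, which carries death receptor signals to mitochondria, stood at 5.07 and 5.29. BIK had exactly the same value on both arrays, 3.79, as did 681 probe sets in all. Of the divergent relatives, 6 of 8 had a value and 5 reached the dim level. Their median was -0.40 with 5 of 6 higher in HT, as in BNIP2 (8.02 and 8.34) and the mitophagy receptor gene BNIP3L (7.33 and 7.46).

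Among partners and anchors of the family, DYNLL1 was the counted gene. It encodes a dynein light chain that binds BMF and BIM and tethers them to the cytoskeleton, and it stood at 8.40 in SUDHL6 and 9.74 in HT, 2.55-fold higher in HT. Its direction was thus opposite to that of BMF and the same as that of BCL2L11, the BIM gene, whose difference of -0.64 was under the threshold. The related light chain gene DYNLL2, which also binds BMF, stood at 6.01 and 6.58. RefSeq lists 7 pseudogenes of DYNLL1, so its value is uncertain. Of the list, 9 of 11 genes had a value and 8 reached the dim level, and 8 of the 9 had the higher value in HT, with a median of -0.33.

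Genes that control MCL1 turnover gave 0 counted members of 7 that reached the dim level (8 of 10 with a value, median -0.11). CUL1, the scaffold of a ubiquitin ligase, stood at 7.95 in SUDHL6 and 7.69 in HT, and GSK3B, a kinase that marks MCL1 for destruction, at 8.18 and 8.40. USP9X, on this list, was read only by shared probe sets. The one shared with USP9Y stood at 8.78 and 9.05, and the one shared with USP9Y and TTTY15 at 2.05 in SUDHL6 and 6.39 in HT. How much of either signal belongs to USP9X was not tested. Events after the mitochondrial pore also gave 0 of 7 (7 of 10 with a value, median -0.15). There CYCS, the gene of cytochrome c, stood at 8.24 and 7.78, and AIFM1 at 8.84 and 8.87. CYCS has 45 pseudogenes in RefSeq and its value is uncertain.

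Of the regulators known to act on these genes and with a probe set of their own, EGR1 was the counted one. In the p53 list, 15 of 19 genes had a value, 12 reached the dim level and 0 were counted, with a median of 0.19. MDM2, the ubiquitin ligase that degrades p53, stood at 7.61 in SUDHL6 and 7.40 in HT. MDM4, a related inhibitor of p53, stood at 8.81 and 8.27. On its own probe set the death receptor gene FAS was under the dim level of each line, at 3.27 and 4.06, whereas a probe set shared with its neighbour STAMBPL1 was higher in HT, at 4.96 and 6.72. In the list of other regulators, all 10 genes with a value, of 13 listed, reached the dim level, with a median of 0.01. EGR1, an immediate early transcription factor gene, was 2.50-fold higher in SUDHL6 (6.99 and 5.67). BCL6, the germinal centre repressor that is known to restrain BCL2, stood at 8.10 in SUDHL6 and 8.90 in HT, under the threshold. FOXO1, of the forkhead factors that activate BCL2L11, stood at 6.66 in both lines. The 2 probe sets shared by STAT5A and STAT5B, cytokine-driven activators of BCL2L1, were higher in HT, at 3.43 in SUDHL6 and 5.64 in HT on one and at 4.99 and 7.39 on the other.

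**Figure D4:**
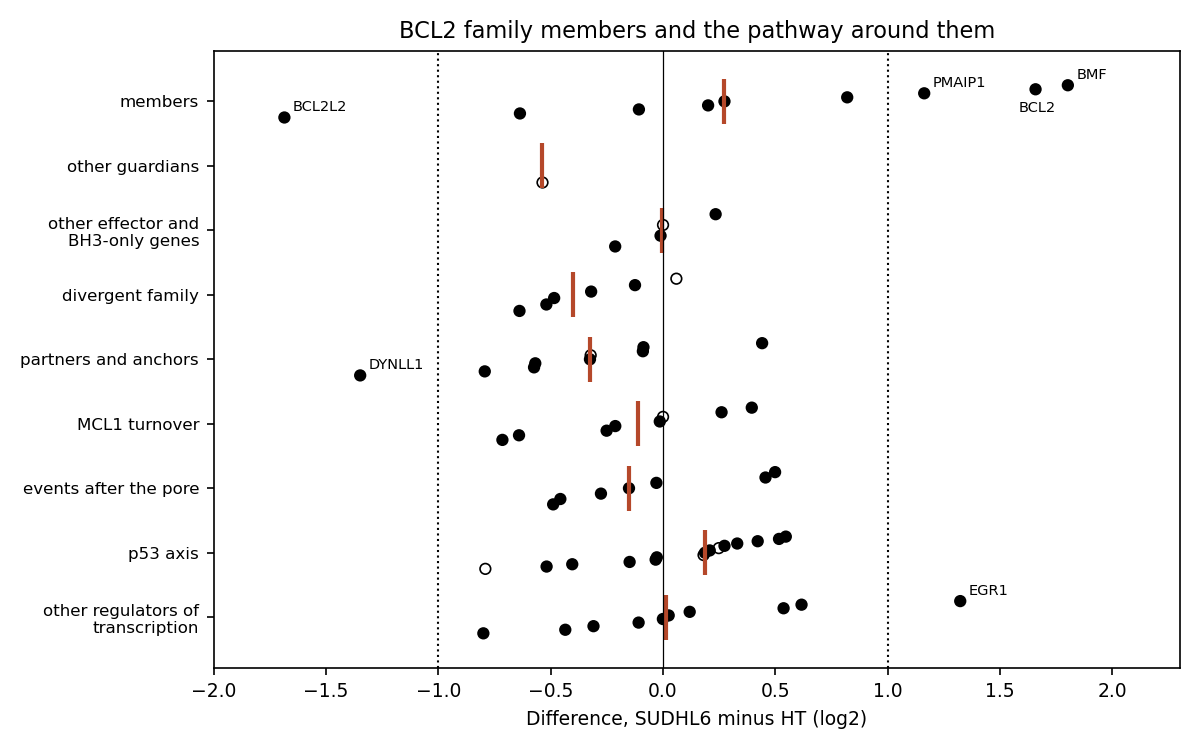
Difference, SUDHL6 minus HT (log2, horizontal axis), of the 9 members and of the genes in 8 lists around them, 1 point per gene, filled where the higher value was at or above the dim level. Red bars mark the median of each list and dotted lines the differences of 1 and -1. Beyond the dotted lines lie 4 members, DYNLL1 and EGR1.

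The promoters of 4 of the 6 killer genes are shown, because BMF and PMAIP1 were higher in the same line while BCL2L11 was not, and BAX stood between them. The RefSeq promoter table (GRCh38.p14) matched 8 of the 10 members, with 10 windows, and MCL1 and BCL2L2 were not matched. BAK1 (2 GC boxes and 1 CCAAT box) and BBC3 (1 E-box and 1 CCAAT box), which differed least among the killers, are not printed. The 250 bases before each start are printed 5' to 3'. Capitals mark matches, on either strand, to CACGTG (E-box, bound by MYC and its partners), TGACGT (the core of the cAMP response element), GTAAACA (forkhead), GCGNGGGCG (EGR), TTCNNNGAA (STAT), GGGCGG (GC box), CCAAT and TATAAA. The windows are PMAIP1 at chr18:59899746-59899995, plus strand, BMF at chr15:40108880-40109129, minus strand, BAX at chr19:48954625-48954874, plus strand, and BCL2L11 at chr2:111120664-111120913, plus strand.
PMAIP1: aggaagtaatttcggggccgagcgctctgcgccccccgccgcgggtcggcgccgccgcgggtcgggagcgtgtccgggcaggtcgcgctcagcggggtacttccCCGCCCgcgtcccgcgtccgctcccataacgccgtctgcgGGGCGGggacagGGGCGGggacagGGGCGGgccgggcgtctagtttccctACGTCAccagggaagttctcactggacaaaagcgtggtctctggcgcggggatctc
BMF: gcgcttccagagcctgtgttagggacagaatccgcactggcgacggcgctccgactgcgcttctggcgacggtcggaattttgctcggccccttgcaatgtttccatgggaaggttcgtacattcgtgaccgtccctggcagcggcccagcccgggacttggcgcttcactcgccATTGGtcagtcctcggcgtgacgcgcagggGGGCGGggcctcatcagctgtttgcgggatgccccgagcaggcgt
BAX: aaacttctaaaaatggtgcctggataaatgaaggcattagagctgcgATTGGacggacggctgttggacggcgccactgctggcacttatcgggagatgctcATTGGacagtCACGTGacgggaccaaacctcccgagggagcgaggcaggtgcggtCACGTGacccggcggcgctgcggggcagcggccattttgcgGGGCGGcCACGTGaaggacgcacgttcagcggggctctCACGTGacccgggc
BCL2L11: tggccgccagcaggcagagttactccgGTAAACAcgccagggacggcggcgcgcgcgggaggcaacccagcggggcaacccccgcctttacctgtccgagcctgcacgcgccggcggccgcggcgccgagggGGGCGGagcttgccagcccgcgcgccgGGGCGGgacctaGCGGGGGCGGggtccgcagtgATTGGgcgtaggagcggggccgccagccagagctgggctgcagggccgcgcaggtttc

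The promoters of the 2 killer genes counted as higher in SUDHL6 both held the GC box, and no other spelled motif lay in both. The GC box is not particular to them: 5 of the 8 matched members held it, with 3 in BCL2L11, 1 in BAX and 2 in BAK1. PMAIP1 held 4 GC boxes and 1 cAMP response element core, which lies 51 bases before the start. BMF held 1 GC box and 1 CCAAT box, and a second window of BMF held 0 matches to the spelled motifs. GC boxes occurred in 42.6% of all 35116 windows of this length and the CCAAT box in 32.0%, whereas the cAMP response element core occurred in 7.10%. BAX held 4 E-boxes, at 133, 88, 40 and 9 bases before the start, and 6.34% of all windows held at least 1. MYC stood at 7.62 in SUDHL6 and 7.01 in HT, under the threshold. BCL2L11 held the forkhead motif 217 bases before its start, which 2.98% of all windows held, and an EGR motif that overlaps a GC box, which 8.41% held. The BCL2 window held 0 matches to the 8 spelled motifs. No member window held the STAT motif (6.57% of all windows) or the p53 response element (0.0256%). The latter was searched as 2 copies of its 10-base unit, adjoining or a short gap apart, with no mismatch allowed. Only 9 of the 35116 windows held it in this form, so its absence from the 10 member windows says little about p53 sites. These matches describe letters in the reference genome, and binding was not measured here.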

How the data were processed

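Total RNA of 2 cell lines, SUDHL6 and HT, was measured on 1 Affymetrix exon array each. The authors deposited log2 values of 22011 probe sets. Per the submitters' processing notes, RMA was used, in Affymetrix Expression Console. Its versions and settings, and the genome build, were not given in the sources used here. RMA equalises the arrays and compresses small differences between dim genes.

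Genes were named from GEO's platform annotation (14432 probe sets with 1 gene, 2408 with several, 5171 unnamed). Symbols were updated by gene number to RefSeq GRCh38.p14, which matched 14404 of the 14432. Each gene took its probe set with the highest mean. Neighbours came from the same RefSeq table. Shares of genes are descriptions of these arrays, not error rates.

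The members, lists and thresholds were chosen with earlier results of these data known. The rule for named genes took all members, up to 4 counted genes of each list (otherwise the 2 with the highest mean), up to 3 counted neighbours of each member and genes sharing a member's probe set. PABPN1, CD22, CD79A, CD79B, PAX5, BCL6, FOXO1, MYC, DYNLL2, BIK, FAS, the shared probe sets of BCL2A1, STAT5A and USP9X, the flanking genes PHLPP1 and KDSR, and the shared neighbours of BCL2 and PMAIP1 were named after their values were seen. Calculations used Python 3.11.15, pandas 2.3.3 and statsmodels 0.14.6, and the counting rule was tested on simulated data. Alternatives covered the scaling, the dim level, the threshold and the choice of probe sets.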

Additional observations from a re-analysis of the deposited data

How the results depend on the processing

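All 4 counted members, BCL2, BMF, PMAIP1 and BCL2L2, remained counted under quantile normalization, loess, median subtraction, averaged or shared probe sets, values raised to the dim level, and a dim level at the 90th or 99th percentile or none. No member changed sign under these settings. The difference of BCL2 ranged from 1.12, with values raised to the dim level, to 1.69. The calls depended on the threshold. At a difference of at least 1.5, PMAIP1 (1.16) was no longer counted and 3 members remained, beside 3.93% of all genes. BCL2 was among these 3 only by its dim HT value, since its raised difference is under 1.5. At 2, the count was 0, since BCL2 (1.66), BMF (1.80), PMAIP1 (1.16) and BCL2L2 (-1.69) all lie under it, while 2.26% of all genes passed. At 0.5, BAX (0.82) and BCL2L11 (-0.64) joined, giving 6 members beside 21.6% of all genes. The shares at 0.5, 1.5 and 2 are over all 14232 genes, including those under the dim level. Shares among the genes that reached it would be higher. The median of the members ran from 0.20 to 0.28. Scaling moved the median of all genes by less than 0.1, and raising dim values moved it to -0.30. No member had several probe sets of its own, so averaging them changed nothing. The 4 counted members had no shared probe set, so including shared ones could not change their calls. A lower or absent dim level cannot remove a counted member, and median subtraction moved every difference by the same small amount. No paired analysis was possible because each line has 1 array, and no replicate could be left out. Signal near the dim level limits BCL2 and BMF in HT, BCL2L2 in SUDHL6 and BAK1. At the 99th percentile the dim level was 4.37 in SUDHL6 and 4.78 in HT, above the lower values of BCL2L2 and BMF.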
